A study of Arabidopsis thaliana with 12 samples.

Results

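The small RNA level and the RNA level of the same genes were set side by side in wild-type Arabidopsis thaliana (Col-0), using 3 small RNA-seq libraries and 3 RNA-seq libraries. The 36899 gene identifiers AT1G to AT5G were kept of the 37184 in each gene table, and each library's counts were divided by its total over these genes and multiplied by 1000000 (CPM). The 6 Col-0 libraries are part of a series of 12. The small RNA came from 14-day seedlings grown on MS plates and the RNA from 21-day seedlings grown on soil. The RNA libraries were stranded and made from total RNA after removal of plant ribosomal RNA, and the small RNA libraries were made by BGI, per the labels' protocols. No library of one assay was paired with a library of the other. Age, medium and assay therefore differ together, and no change between the assays was tested. The other 6 libraries came from xrn3-8, a mutant allele of XRN3, which encodes a nuclear 5′-to-3′ exoribonuclease, grown in the same 2 ways with 3 libraries per assay. The material was seedlings in bulk, in which fewer cells of a type and less RNA per cell cannot be told apart.

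Plant small RNAs are cut from longer RNA by DICER-LIKE enzymes and loaded onto ARGONAUTE proteins. Small interfering RNAs of repeats and transposons arise through RNA polymerase IV and RNA-DEPENDENT RNA POLYMERASE 2 and guide DNA methylation, which keeps the locus itself silent. MicroRNAs come from hairpin transcripts and cut or block the messenger RNA of their targets, some of which then give rise to secondary, phased small interfering RNAs. Short pieces of ribosomal and transfer RNA, and of abundant messenger RNA, are also read in small RNA libraries.

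Genes were ranked within each assay by mean CPM over the 3 Col-0 libraries, and a percentile is the share of the 36899 genes at or under a level, with ties at their mean rank. A gene was called rich when it stood in the top 5% of an assay, which is 1845 genes, and low when it stood at percentile 50 or under. By this rule 1669 genes (4.52%) were rich in small RNA with little RNA, 116 (0.314%) were rich in RNA with little small RNA, and 27 (0.0732%) were rich in both. The remaining 149 genes rich in small RNA (0.404%) had RNA between the median and the top 5%. Since levels chose the members, the levels below describe the classes and support nothing further.

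The limits were 39.6 CPM for small RNA and 107 CPM for RNA at the top, and 0.258 CPM for small RNA and 0.966 CPM for RNA at the median. Just inside the small RNA limit stood the pseudogenes AT3G45446 at 39.61 ± 10.4 CPM and AT4G13470 at 39.67 ± 16.1 CPM (SD, n = 3), and just outside it AT1G34080 at 39.57 ± 4.48 CPM and AT3G33225 at 39.58 ± 5.80 CPM. On the RNA side AT5G42740 at 106.9 ± 2.70 CPM was just inside, and CYP96A4 at 106.7 ± 4.33 CPM just outside. AT3G25855, at 0.953 ± 0.362 CPM of RNA, was just inside the limit for little RNA, and U3B, at 0.996 ± 0.313 CPM of RNA, just outside it. Genes on either side of a limit thus differed by less than the SD of their replicates. The 3 Col-0 small RNA libraries held 5873199 to 6652964 counts in these genes and the 3 RNA libraries 29533392 to 33434319. One count was worth 0.150 to 0.170 CPM of small RNA and 0.0299 to 0.0339 CPM of RNA. A count of 0 in a library allows a level of up to 0.451 to 0.511 CPM of small RNA and 0.0897 to 0.102 CPM of RNA (3 counts, counting error only), so "low" in small RNA means a handful of reads. Libraries of the same assay ranked the genes alike, with Spearman correlations across genes of 0.847 to 0.857 for small RNA and 0.981 to 0.982 for RNA.

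Leaf genes marked the RNA libraries and root genes hardly did. RBCS1A, RCA, LHCB2.1 and LHCB3 were all in the top 5% by RNA and summed to 18826 to 20171 CPM per library. Of 5 root genes, PLT1, RHD6 and EXPA7 had 0 RNA counts, and the 5 summed to 7.18 to 8.80 CPM. Flower genes (AP1, AP3, PI, AG) summed to 1.11 to 2.64 CPM and seed storage genes to 0.12 to 8.19 CPM, highest in replicate 3. Marker genes of messenger RNA do not check the tissue of the small RNA libraries.

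**Figure D1:**
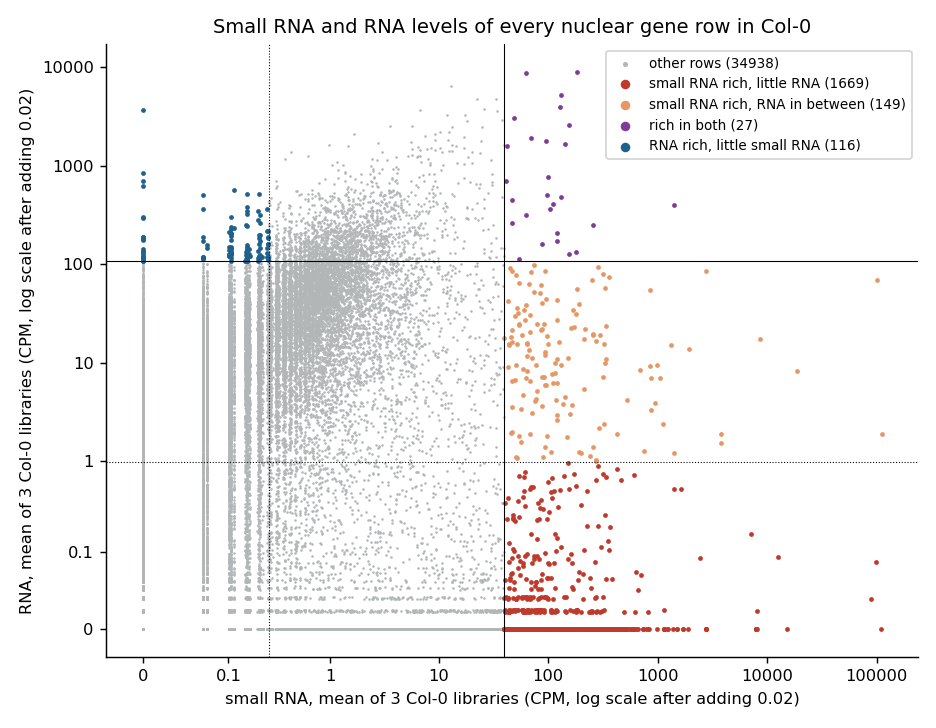
Mean Col-0 small RNA level (x axis) against mean Col-0 RNA level (y axis) of each of the 36899 genes, in CPM on log axes after adding 0.02. Solid lines mark the top 5% of each assay and dotted lines the median. The 1669 genes rich in small RNA with little RNA fill the lower right, most of them at 0 RNA, while 27 genes lie beyond both solid lines.

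The genes rich in small RNA with little RNA held most of the small RNA. These 1669 members took 63.7%, 64.2% and 64.5% of the small RNA counts in the 3 Col-0 libraries, and 0.00315% of the mean RNA level. Their small RNA spanned 39.6 to 110278 CPM with a median of 77.4 CPM, against a median of 0.258 CPM over all genes. In RNA, 1420 of them (85.1%) had 0 counts in all 3 libraries, against 12463 (33.8%) of all genes, and none exceeded 0.953 CPM. Each Col-0 RNA library tallied 7877058 to 10324989 reads with several positions apart from the genes, and each small RNA library 0. An RNA count of 0 in a repeated gene therefore need not mean that RNA was absent. How many members this touches was not tested.

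By the labels of the TAIR10.1 reference, 1114 members (66.7%) were pseudogenes, a label of 10.6% of all genes. The reference gives transposable elements no label of their own, and any among the pseudogenes were not separated. Of all 3903 annotated pseudogenes 28.5% met the rule, and only 61 of the 3903 had no small RNA count. Protein-coding genes gave 284 members (17.0%), which is 1.04% of the 27432 protein-coding genes. A further 144 members were transfer RNA genes (23.0% of 625), 63 were transcribed pseudogenes, 55 were long non-coding RNAs, 5 small nuclear RNAs and 2 ribosomal RNAs. The class of genes rich in RNA with little small RNA held no label other than protein-coding.

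**Figure D2:**
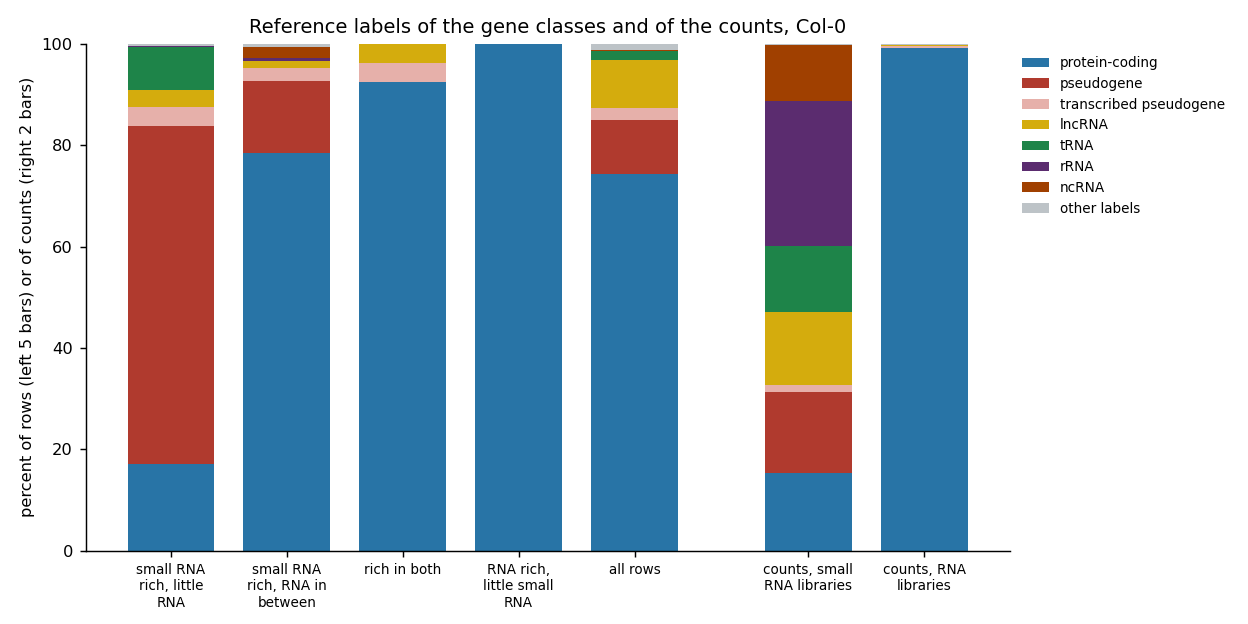
Share of each reference label (stacked bars, percent) among the genes of each class and among all 36899 genes, and among the counts of the Col-0 small RNA and RNA libraries. Pseudogenes make up 66.7% of the genes rich in small RNA with little RNA and 10.6% of all genes, and protein-coding genes take 15.3% of small RNA counts and 99.1% of RNA counts.

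A few structural RNAs and hairpin loci dominated by size. Ribosomal RNA genes took 25.1%, 30.4% and 30.7% of the Col-0 small RNA counts, and AT2G01010 alone had 86318, 105646 and 105341 CPM of small RNA with 0.0756 ± 0.0537 CPM of RNA. Their RNA level was read after the removal of ribosomal RNA by the library kit. The transfer RNA gene with the highest level, AT3G63003, had 7110, 8136 and 8766 CPM of small RNA and 0 RNA counts. Of all 625 transfer RNA genes, with a median length of 73 nt, 582 had 0 RNA counts. Whether the RNA libraries can read RNA this short was not tested, so little RNA in these genes may not be a trait of the genes. With ribosomal and transfer RNA genes left out, the other members took 36.1%, 31.3% and 30.8% of small RNA counts, per library. Pseudogene members took 14.6%, 11.0% and 10.6%. Long non-coding RNA members took 14.0% of the mean small RNA level, most of it in AT5G26146, described below.

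Loci of microRNA hairpins overlapped 13 members of this class (0.779%), against 115 of all genes (0.312%). The other genes rich in small RNA had higher shares. Such loci overlapped 10 of the 149 with RNA between the median and the top 5% (6.71%). They overlapped 1 of the 27 genes rich in both. The hairpin genes themselves, and the TAS genes that yield phased small RNAs, were not analysed here, so their reads are seen only through genes that overlap them. The long non-coding RNA AT5G26146, which overlaps MIR156f, had 108249, 108448 and 114139 CPM of small RNA and 0 RNA counts. The non-coding RNA AT4G30975, which overlaps MIR156b, had 108627, 108744 and 114451 CPM of small RNA with 1.86 ± 0.0882 CPM of RNA, and so fell just above the RNA median. Both were among the highest of all genes and nearly equal in each library. MIR156 hairpins share their mature microRNA, and the sources used here do not give how reads with several positions were counted. On chromosome 5, 5 pseudogenes overlapped MIR854a to MIR854e and ran between 196 and 629 CPM of small RNA, with 0 RNA counts in 3 of them. HTA4, a histone H2A gene that overlaps MIR841a, had 198, 190 and 167 CPM of small RNA and 0 RNA counts, and the long non-coding RNA AT3G02155, at MIR2111a, had 87.5 ± 19.4 CPM of small RNA and 0 RNA counts. HTA4 and AT3G02155 were chosen after their values were seen.

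Among pseudogenes the highest was AT3G43730, with 2119, 1826 and 1708 CPM of small RNA and no RNA count. The pseudogene members had a median of 74.6 CPM of small RNA, and 976 of the 1114 had no RNA count. They were also long, with a median of 3532 nt, against 1835 nt over all genes. CPM grows with gene length, and per kilobase only 535 of the 1114 stayed in the top 5% by small RNA, against 248 of the 284 protein-coding members and all 144 transfer RNA members. Over the whole class the number was 1045 of 1669.

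Members lay side by side on the chromosomes. A direct neighbour in the same class was found for 550 of the 1669 (33.0%), and 8.31% of all genes have a neighbour in it. Of the stretches, 176 held 2 members, 38 held 3, 17 held 4, 2 held 5 and 1 held 6. The longest was made of pseudogenes from AT5G33431 to AT5G33624. One stretch of 4 was protein-coding: GH9B9, GH9B10, GH9B11 and GH9B12, members of the family of endoglucanases that cut cellulose, at 252 ± 42.4, 577 ± 126, 650 ± 156 and 317 ± 58.6 CPM of small RNA. GH9B11 had 830, 555 and 564 CPM of small RNA and no RNA count. GH9B12 had the most RNA of the 4, 0.728 ± 0.242 CPM. This stretch, apart from GH9B11, was chosen after its values were seen.

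The protein-coding members with the most small RNA had it in every library and next to no RNA. The highest was AT2G01021, with 10656, 13081 and 13655 CPM of small RNA and 1, 1 and 6 RNA counts; its identifier is next to that of the ribosomal RNA gene AT2G01020. AT3G41762, which overlaps MIR5642a, had 2597, 2249 and 2417 CPM of small RNA and 5, 2 and 1 RNA counts. AT2G06555 had 1569, 1242 and 1295 CPM of small RNA, and WRKY43, a transcription factor of the WRKY family, had 1056, 944 and 972 CPM of small RNA. Neither AT2G06555 nor WRKY43 had an RNA count. Per kilobase, AT3G41762, AT2G06555 and WRKY43 stood at percentile 99.8 by small RNA. IND, a transcription factor that patterns the opening of the fruit, had 279, 180 and 247 CPM of small RNA and 1 RNA count over the 3 libraries. IND was chosen after its values were seen. In all, 211 of the 284 protein-coding members had no RNA count, and none passed 0.953 CPM of RNA.

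**Figure D3:**
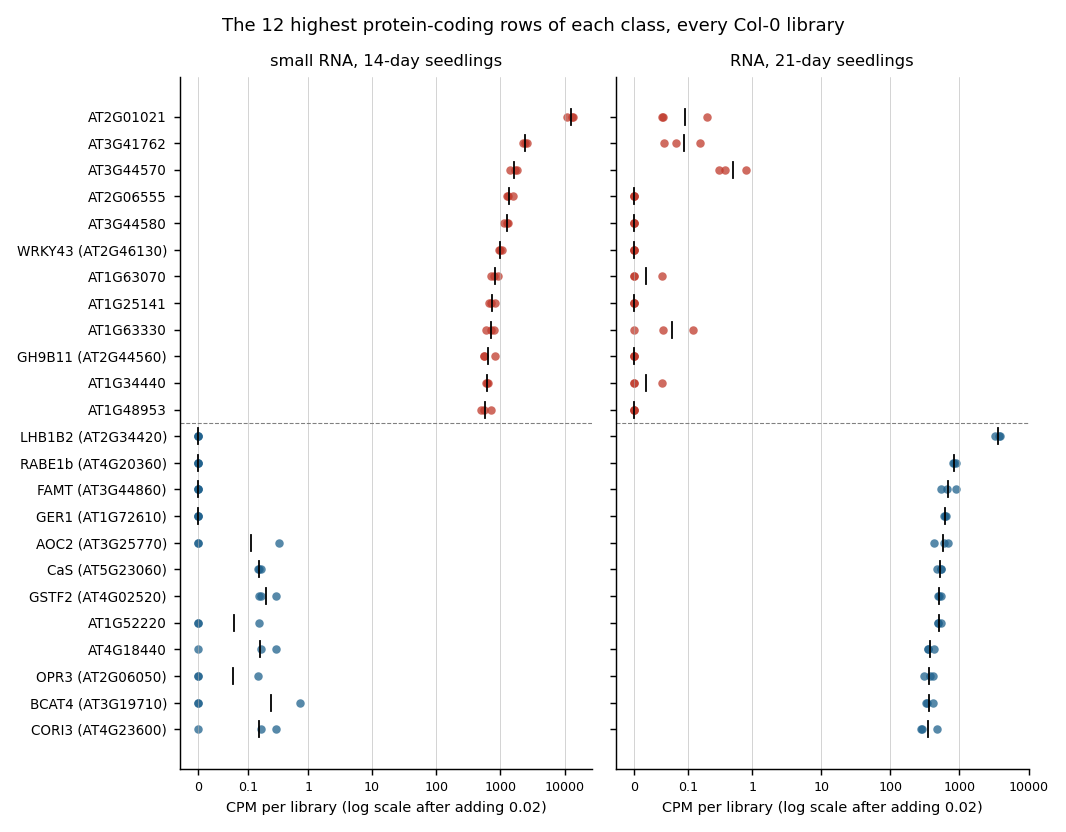
Level in each Col-0 library (dots) with its mean (bar), in CPM, for the 12 protein-coding genes with the most small RNA among genes rich in small RNA with little RNA (top) and the 12 with the most RNA among genes rich in RNA with little small RNA (bottom). Small RNA is in the left panel and RNA in the right; every dot of the upper 12 genes lies at 490 CPM of small RNA or more, and every dot of the lower 12 at 0.752 CPM or less.

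Pentatricopeptide repeat (PPR) genes encode RNA-binding proteins of the organelles. Of 17 PPR genes, listed because they are known as sources of secondary small RNA, 12 were in the top 5% by small RNA and none by RNA, and the lowest of the other 5 had 2.36 CPM of small RNA. The list had medians of percentile 99.8 by small RNA and 59.8 by RNA; the median gene of an assay is at percentile 50 by construction. AT1G63130 had 1535, 1289 and 1143 CPM of small RNA and 15.6, 14.8 and 14.8 CPM of RNA, and overlaps MIR5652. AT1G63070 had 921, 800 and 717 CPM of small RNA and a single RNA count. AT1G63330 had 804, 703 and 603 CPM of small RNA and 1, 4 and 0 RNA counts. These last 2 genes were the only PPR genes of the list in the low-RNA class, while 10 others had RNA between the median and the top 5%. PPR genes of this list are close relatives, and shared reads cannot be assigned to one of them with certainty.

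Of 30 transcription factor genes that microRNAs target, 8 were rich in small RNA and none were rich in RNA, and the 8 all had RNA between the median and the top 5%. They were 5 SPL genes, targets of miR156, and the 3 HAM genes, GRAS-family targets of miR171. HAM1 had 167 ± 4.55 CPM of small RNA and 34.1 ± 2.25 CPM of RNA, while HAM3 had 164 ± 5.61 CPM of small RNA and 3.69 ± 0.18 CPM of RNA. The closeness of HAM1, HAM2 (161 ± 5.70 CPM) and HAM3 in small RNA stood beside RNA levels that spread widely. SPL9, which also overlaps MIR156j, had 119 ± 21.1 CPM of small RNA and 2.60 ± 0.292 CPM of RNA, and SPL13A had 44.2 ± 2.74 CPM of small RNA and 15.2 ± 1.84 CPM of RNA. Other listed targets had few small RNA counts, such as SPL3 with none at 15.7 CPM of RNA. The list as a whole stood at a median percentile of 73.8 by small RNA and 73.2 by RNA. NAC080 and NAC100, transcription factors of the NAC family, had the same 3769 ± 190 CPM of small RNA, at 1.53 ± 0.482 and 1.89 ± 0.008 CPM of RNA. Both NAC genes were chosen after their values were seen. How reads with several positions were counted is not given. The levels of the NAC pair, and those of the HAM genes, may therefore hold the same reads, which was not tested.

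Genes of nutrient and copper use fell into several classes. ARPN, a small copper protein, had 523 ± 98.7 CPM of small RNA and 4.15 ± 0.93 CPM of RNA. PHO2, the ubiquitin-conjugating enzyme of phosphate homeostasis that miR399 targets, was rich in both, with 157, 99.0 and 102 CPM of small RNA and 218, 202 and 202 CPM of RNA. CSD1, a copper/zinc superoxide dismutase that miR398 targets, was the reverse case, with 0.215 ± 0.187 CPM of small RNA and 172 ± 28.8 CPM of RNA. The 12 listed genes had median percentiles of 57.6 by small RNA and 89.1 by RNA.

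Auxin and silencing genes mostly lay between the classes. The auxin receptor gene AFB2 had 48.9, 34.2 and 32.6 CPM of small RNA and 95.1, 98.5 and 100.4 CPM of RNA, just under the top 5% of both. AFB3 had 34.6 ± 3.23 CPM of small RNA, TIR1 4.06 ± 0.672 CPM and AFB1 0.683 ± 0.233 CPM, so the 4 receptor genes ran in the order AFB2, AFB3, TIR1, AFB1, with AFB2 and AFB3 overlapping between libraries. None of 8 ARF genes was rich in small RNA, and ARF4, a target of TAS3-derived small RNAs, came closest at 30.5 ± 7.23 CPM of small RNA with 35.4 ± 0.528 CPM of RNA. Of 15 genes of the silencing machinery only AGO2, a miR403 target, was rich in small RNA, with 63.3 ± 13.2 CPM of small RNA and 15.9 ± 1.68 CPM of RNA. AGO1, the main microRNA effector and a miR168 target, had 29.0 ± 5.25 CPM of small RNA and 119 ± 1.46 CPM of RNA. DCL1, which overlaps MIR838, had 11.5 ± 2.38 CPM of small RNA and 70.5 ± 4.69 CPM of RNA.

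Loci known for silencing by DNA methylation were not among the rich genes. Of 6 such loci none was in the top 5% by small RNA, and their median percentile was 81.8 by small RNA and 58.9 by RNA. FWA, a homeodomain gene kept silent by methylated repeats in wild type, had 19.8, 11.8 and 9.17 CPM of small RNA and 3 RNA counts in replicate 1 with none in the other 2 libraries.

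Genes rich in both assays numbered 27. Photosynthesis genes of the nucleus were 7 of the 27: the light-harvesting genes CAB1, CAB2, CAB3, LHB1B1, LHCA2 and LHCA3, and RBCS1A, a small subunit gene of Rubisco. CAB1 had 143, 207 and 196 CPM of small RNA and 7894, 9528 and 9394 CPM of RNA. RBCS1A had 53.1, 74.8 and 61.8 CPM of small RNA and 8711, 9035 and 8297 CPM of RNA. Immune receptors of the NBS-LRR kind were also present, RPP4 with 104 ± 16.9 CPM of small RNA and 360 ± 10.2 CPM of RNA, and SNC1 with 97.6 ± 12.4 CPM of small RNA and 504 ± 16.8 CPM of RNA. Of the 8 NBS-LRR genes listed, 2 others were rich in small RNA at lower RNA. AT1G12290, which overlaps MIR472, had 332 ± 57.2 CPM of small RNA and 9.85 ± 0.424 CPM of RNA, and AT5G43740 had 74.7 ± 9.81 CPM of small RNA and 52.5 ± 3.88 CPM of RNA. The highest small RNA level among genes rich in both was that of the long non-coding RNA AT1G05163, with 1288, 1486 and 1472 CPM of small RNA and 308, 387 and 512 CPM of RNA.

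In most highly expressed genes small RNA was present at a modest level. All 26 listed photosynthesis genes were in the top 5% by RNA, and 25 of them stood between percentiles 81.3 and 99.1 by small RNA. The 8 housekeeping genes had a median percentile of 86.7 by small RNA and 98.6 by RNA. Only 21 (1.14%) of the 1845 genes richest in RNA had no small RNA count, against 7911 (21.4%) of all genes. Ordered by RNA, the median small RNA percentile was 37.2 for genes up to percentile 50, 44.1 from percentile 50 to 75, 57.9 to 90, 66.8 to 95, 74.2 to 99 and 82.2 in the top 1%. Ordered by small RNA the pattern was not a mirror image: the median RNA percentile was 44.9 up to percentile 50, 76.9 from percentile 50 to 75, 44.1 to 90, and 16.9, the rank shared by all genes with 0 RNA, in each bin above 90. Among protein-coding genes, ordered by small RNA, it was 52.1 up to percentile 50, 78.6 from percentile 50 to 75, 78.9 to 90, 35.2 to 95, 16.9 to 99 and 42.0 in the top 1%. Ordered by RNA, the protein-coding genes had a median small RNA percentile of 30.0 up to percentile 50 and 82.2 in the top 1%.

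**Figure D4:**
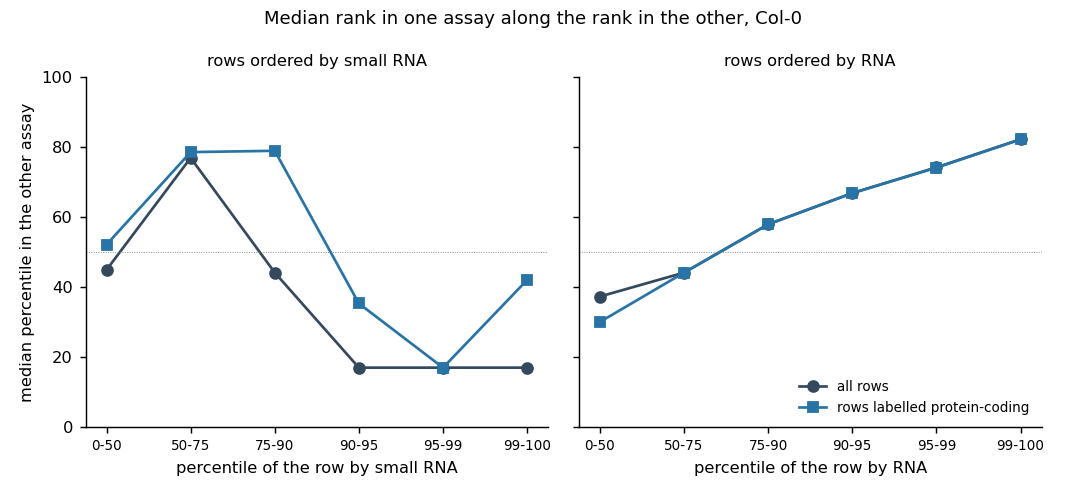
Median percentile in the other assay, over genes in bins of their rank, for all genes and for protein-coding genes. Ordered by small RNA (left), the median RNA percentile over all genes peaks at 76.9 between percentiles 50 and 75 and is 16.9 above percentile 90, while that over protein-coding genes is 78.9 between percentiles 75 and 90 and 42.0 in the top 1%; ordered by RNA (right), the median small RNA percentile climbs to 82.2 in the top 1%.

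Across all 36899 genes the Spearman correlation of mean small RNA with mean RNA was 0.126, and it was 0.0634 to 0.1004 over the 9 pairs of one library of each assay. It was 0.412 within protein-coding genes and −0.035 within pseudogenes. Per kilobase over all genes it was 0.018. These values are descriptions: genes share the same 6 libraries, and gene length enters both levels.

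The 116 genes rich in RNA with little small RNA were all protein-coding, had a median of 143 CPM of RNA (range 107 to 3629 CPM) and held 2.58% of the RNA counts, against 0.0015% of the small RNA counts. Their median small RNA was 3 counts over the 3 libraries together, and 21 (18.1%) had none. No microRNA locus overlapped one. Of the 116, 4 (3.45%) were next to another member, and 0.629% of all genes have a neighbour in the class. Per kilobase, 93 of the 116 stayed in the top 5% by RNA.

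The highest of them was LHB1B2, a light-harvesting chlorophyll a/b protein gene, with 0, 0 and 0 counts of small RNA and 3290, 3808 and 3788 CPM of RNA. Its neighbour and near-identical copy LHB1B1 had 116, 151 and 158 CPM of small RNA at 1531, 1843 and 1622 CPM of RNA. Counts of such near-identical copies, the CAB genes included, are uncertain where reads fit more than one of them, and LHB1B2 was the only one of the 26 photosynthesis genes at percentile 50 or under by small RNA. RABE1b, the chloroplast elongation factor Tu, had no small RNA count and 815, 882 and 823 CPM of RNA. GER1, a germin-like protein gene, had none and 636, 629 and 593 CPM of RNA. CaS, the calcium-sensing protein of thylakoids, had 1 small RNA count in each library and 549, 536 and 478 CPM of RNA.

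FAMT, a farnesoic acid methyltransferase gene, had no small RNA count and 536, 663 and 883 CPM of RNA. Enzymes of jasmonate synthesis were among the 12 highest. AOC2 and OPR3 had 2 and 1 small RNA counts over the 3 libraries at 571 ± 123 and 366 ± 54.9 CPM of RNA. CORI3, a coronatine- and jasmonate-induced gene, had 3 small RNA counts and 349 ± 111 CPM of RNA. LOX4, a lipoxygenase of the same pathway, had 304 ± 36.1 CPM of RNA, the transcription factor MYC2 had 292 ± 46.5 CPM and its repressor JAZ1 had 218 ± 40.9 CPM, with at most 0.258 CPM of small RNA in these 3 genes. No list of jasmonate genes was tested for enrichment, and MYC2 and JAZ1 were chosen after their values were seen. In FAMT, AOC2 and OPR3 replicate 1 was the lowest RNA library and replicate 3 the highest.

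Whether the classes recur was asked of single libraries and of the mutant. By its rank in each of the 6 Col-0 libraries taken singly, the rule was met throughout by 1525 of the 1669 genes rich in small RNA with little RNA (91.4%), against 50 of 116 (43.1%) in the reverse class and 23 of 27 (85.2%) rich in both. Ranked by the xrn3-8 means, 1569 of 1669 (94.0%) met the rule again, out of 1654 xrn3-8 genes that did. For the reverse class it was 38 of 116 (32.8%), out of 119, and for genes rich in both 22 of 27 (81.5%), out of 22. The share was lowest in the reverse class, whose small RNA limit is 5 counts over 3 libraries. By xrn3-8 means its 116 genes had a median percentile of 95.3 by RNA, just inside the top 5%, and 44.8 by small RNA. The share that missed each limit was not counted.

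Replicate 3 of the xrn3-8 small RNA libraries stood apart. Ribosomal RNA genes took 6.27% of its counts, against 25.0% and 22.1% in the other 2, and transfer RNA genes took 4.13%, against 13.4% and 11.8%. Without it, 1559, 37 and 24 genes met the 3 rules by xrn3-8 means. XRN3 itself was rich in small RNA in both genotypes: it had 538823, 573638 and 706264 small RNA counts in xrn3-8 and 276, 790 and 350 in Col-0 (log2 fold change 10.28, SE 0.77, edgeR adjusted p = 0.00037). Its RNA had 1398, 1669 and 1505 counts in xrn3-8 and 3140, 3242 and 2878 in Col-0 (log2 fold change −1.24, SE 0.08, edgeR adjusted p = 2.6e-06), and it lay between the median and the top 5% by RNA in Col-0, at 97.9 ± 1.29 CPM.

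Few genes rich in small RNA with little RNA passed the test of a small RNA difference in the mutant. All 1669 could be tested by edgeR's quasi-likelihood test with Benjamini-Hochberg adjustment at 0.05; 15 (0.899%) were higher in xrn3-8, where 5.98% of the 9110 genes tested were higher, and 30 (1.80%) were lower, where 1.01% were lower. The median log2 fold change of the class was −0.06, against −0.001 over all genes tested, and the Col-0 levels that chose the class also enter this contrast. Among tested genes outside the top 5% by small RNA, 520 of 7265 (7.16%) were higher and 54 (0.743%) lower. Genes with few Col-0 counts can pass the filter through xrn3-8 alone, which members of this class cannot, so those shares are unlike baselines for it. Among all 1845 genes in the top 5% by small RNA, which include the class, 25 (1.36%) were higher and 38 (2.06%) lower. By label, 1 of 1114 pseudogenes (0.09%) was higher and 9 (0.81%) lower, and 9 of 284 protein-coding genes (3.17%) were higher and 13 (4.58%) lower. Of 55 long non-coding RNAs 5 (9.09%) were lower, and of 63 transcribed pseudogenes 3 (4.76%), with none higher in either label. None of the 144 transfer RNA genes passed in either direction, although their median log2 fold change was −0.32. The library that stands apart touches these counts: without xrn3-8 replicate 3, 13 members were higher and 42 lower. Fewer were lower without Col-0 replicate 1 (14), 2 (16) or 3 (12), and 9 were higher without Col-0 replicate 1. With counts scaled by library totals 7 members were higher and 27 lower, and with no filter on low counts 112 were lower. Over all genes the 92 lower calls became 133 without xrn3-8 replicate 3, and 37, 42 and 37 without Col-0 replicate 1, 2 and 3. Library totals gave 595 higher and 117 lower over all genes, and no filter gave 1020 and 378.

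Some single members differed strongly. AT3G13830 had 2, 1 and 3 small RNA counts in xrn3-8 and 327, 285 and 178 in Col-0 (log2 fold change −6.95, SE 0.33, edgeR adjusted p = 4.5e-05). The long non-coding RNA AT2G07545 had 28, 32 and 54 counts in xrn3-8 and 823, 742 and 615 in Col-0 (log2 fold change −4.28). AT5G36228 had 51, 55 and 97 counts in xrn3-8 and 356, 415 and 386 in Col-0 (log2 fold change −2.55), and the pseudogene AT4G13470 had a log2 fold change of −1.83. The genotypes do not overlap in any of these 4. The transcribed pseudogene AT3G26775 had a log2 fold change of −1.78, and its call was lost without Col-0 replicate 1, 2 or 3 or xrn3-8 replicate 2 (edgeR adjusted p of 0.052 to 0.086). Of those higher in xrn3-8, U1.5, a spliceosomal U1 RNA gene, had 1318, 1369 and 2543 counts in xrn3-8 and 241, 263 and 292 in Col-0 (log2 fold change 2.66). AT4G33290 had 1460, 1349 and 1572 counts in xrn3-8 and 324, 256 and 270 in Col-0 (log2 fold change 2.37), followed by AT1G47765 at 1.32 and the U6 RNA genes U6-29 at 1.12 and U6.4 at 1.07, whose near-identical copies make their counts uncertain.

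The RNA of these genes was mostly too low to be tested: 64 of 1669 passed the filter on low counts. A gene without an RNA count in Col-0 can pass only through xrn3-8 and is then higher there, so no count over the genes that passed is given. The values of 3 with no RNA count in Col-0 follow, as a description. MYB3R2, a MYB transcription factor, had 75, 75 and 104 RNA counts in xrn3-8 and 0 in each Col-0 library. The pseudogene AT3G24390 had 119, 75 and 173 RNA counts in xrn3-8 and 0 in each Col-0 library. The pseudogene AT4G20365 had 97, 138 and 137 RNA counts in xrn3-8 and 0 in each Col-0 library, and its direct neighbour is RABE1b, the gene with the second highest RNA of the reverse class. AT4G20365 and RABE1b are 1 of 5 such pairs of neighbours from the opposite classes, which hold 1669 and 116 genes. Of all genes, 8.31% have a neighbour in the class rich in small RNA with little RNA, and 0.629% have one in the reverse class.

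Most genes rich in RNA with little small RNA had less RNA in the mutant. All 116 were tested, and 80 (69.0%) were lower in xrn3-8, where 17.0% of the 20564 genes tested were lower. Only 1 (0.862%) was higher, where 16.8% of all genes tested were higher, and 2 were without Col-0 replicate 1 or xrn3-8 replicate 2. The median log2 fold change was −0.56, against 0.01 over all genes tested, and 27 were lower by at least 2-fold. High Col-0 RNA chose these genes, and among all 1845 genes in the top 5% by RNA, 772 (41.8%) were lower, 203 (11.0%) higher, and the median was −0.19. For the 1729 of them with small RNA above the median, 692 (40.0%) were lower and the median was −0.18. With counts scaled by library totals, 5785 of all genes were higher and 2298 lower, and the median of all genes moved to 0.16. The median of the 116 was then −0.41.

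**Figure D5:**
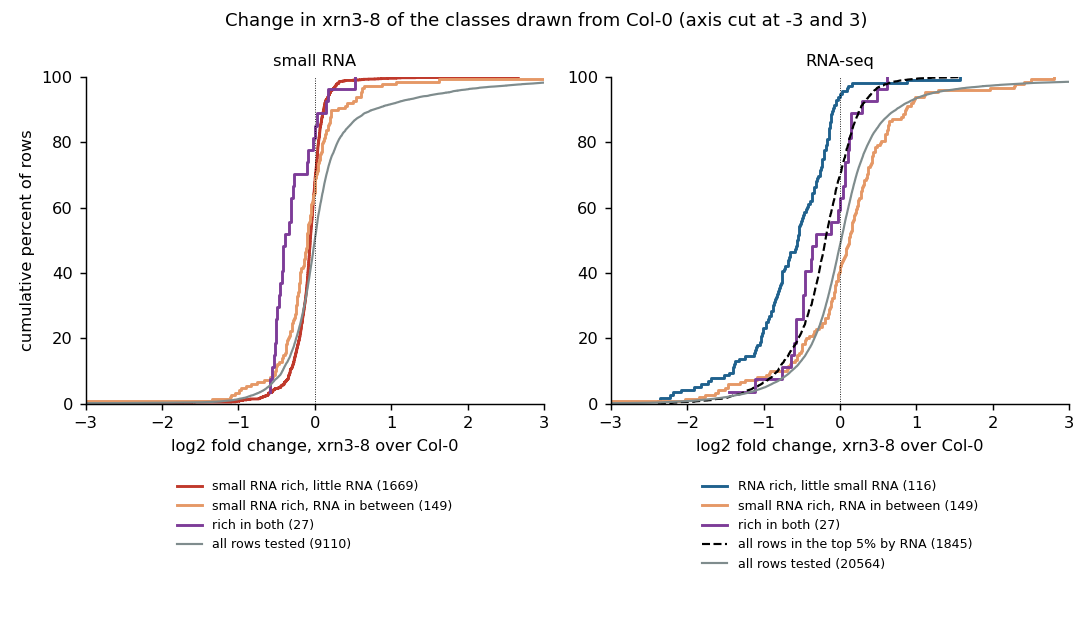
Cumulative share of genes (percent) against the log2 fold change of xrn3-8 over Col-0, for small RNA (left) and RNA (right), by class and for all genes tested; the axis is cut at −3 and 3. The curve of the 116 genes rich in RNA with little small RNA lies left of that of all 1845 RNA-rich genes (dashed), with medians of −0.56 and −0.19.

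The largest falls in the reverse class were in AT3G29000 and CCA1. AT3G29000 had 717, 1078 and 946 RNA counts in xrn3-8 and 4453, 3916 and 3746 in Col-0 (log2 fold change −2.38, SE 0.10, edgeR adjusted p = 2.1e-07). CCA1, a morning transcription factor of the circadian clock, had 750, 1015 and 828 RNA counts in xrn3-8 and 4066, 3340 and 3863 in Col-0 (log2 fold change −2.36, SE 0.11, edgeR adjusted p = 5.7e-07). B120, a receptor-like kinase gene, followed at −2.22, FAMT at −2.18 and LOX4 at −2.08. All 5 kept their calls with any one library left out. The gene that was higher, COR15A, a cold-induced chloroplast protein gene, had 10846, 15920 and 10683 RNA counts in xrn3-8 and 3599, 4310 and 2890 in Col-0 (log2 fold change 1.57, SE 0.14, edgeR adjusted p = 2e-05).

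EDS1, a central regulator of plant immunity, was the only one of the 116 with enough small RNA to be tested. It had 17, 10 and 18 small RNA counts in xrn3-8 and 0, 2 and 2 in Col-0. It was chosen for little small RNA in Col-0 and passed the filter on low counts only through xrn3-8, so these counts are a description and no test of them is given. Its RNA was lower in xrn3-8 at a log2 fold change of −1.11 (edgeR adjusted p = 3.1e-06), and Col-0 had 278 ± 4.02 CPM.

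Of the 27 genes rich in both, 14 (51.9%) had lower RNA in xrn3-8 and 2 (7.41%) higher, beside the 41.8% lower and 11.0% higher of all RNA-rich genes. In small RNA 2 (7.41%) were lower and 1 (3.70%) higher, beside 2.06% lower and 1.36% higher of all genes in the top 5% by small RNA. Over all genes tested the shares were 1.01% and 5.98%. AT4G13575, which overlaps MIR3932b, had the largest RNA change at a log2 fold change of −1.46 (edgeR adjusted p = 1.8e-05), and LHB1B1 fell by 0.76 on the log2 scale. Of the 149 genes rich in small RNA with intermediate RNA, 32 (21.5%) had higher RNA in xrn3-8 and 28 (18.8%) lower, near the 16.8% and 17.0% of all genes tested. GRP7, a clock-driven RNA-binding protein gene, had 6044, 5887 and 5877 RNA counts in xrn3-8 and 766, 1195 and 934 in Col-0 (log2 fold change 2.41), and LRX3, a cell-wall extensin gene, had a log2 fold change of 2.29.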

How the data were processed

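Small RNA-seq and RNA-seq gene tables of Col-0 and xrn3-8 (3 libraries each) were used. The deposited values are whole-number read counts per gene, which the authors left unnormalized. For RNA-seq HISAT2 and HTSeq are named, and for small RNA Bowtie and HTSeq, with TAIR10, per the submitters' processing notes; the sources used here give no settings and no use of strand, so reads of overlapping genes, antisense ones included, cannot be assigned to either. Reads with several positions were tallied as 0 in the small RNA libraries and as 7877058 to 10324989 in the Col-0 RNA libraries. Identical small RNA counts with another gene were found for 116 genes. Libraries of xrn3-8 held 6289475 to 7122245 (small RNA) and 29227897 to 35922818 (RNA) counts.

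CPM, ranks and classes were computed in Python 3.11.15 with pandas 2.3.3. Labels and gene order came from the RefSeq table of TAIR10.1, which matched all 36899 genes. Genotypes were compared with edgeR 4.0.16 in R 4.3.3 (quasi-likelihood, TMM factors, filterByExpr with a minimum count of 10, two-sided, Benjamini-Hochberg over all genes tested, threshold 0.05). The script was tested on simulated data, where it recovered 161 of 200 genes changed by a log2 fold of 2 for small RNA and 200 of 200 for RNA. False calls numbered 5 and 6. The changed genes were drawn from well-counted genes, with a fixed dispersion per assay and no library that stood apart. These numbers therefore do not give the power in the real data. DESeq2 1.42.0, total-count scaling, no filter, a replicate block and leaving out each library were alternatives. Replicates are biological, per the design text. Genes named are the 12 highest of each class overall and among protein-coding genes, the 8 highest rich in both, the highest of certain labels, listed genes and the 5 largest genotype changes each way. Members and lists were chosen with earlier results of these data known.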

Additional observations from a re-analysis of the deposited data

How the results depend on the processing

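The class rich in small RNA with little RNA held 1669 genes and kept within 1.5 times of it with a limit of no RNA count at all (1420), per kilobase (1697, of which 1035 shared), TMM-scaled levels, one of each set of identical genes, and leaving out any library. It moved to 645 at the top 2%, 3305 at the top 10% and 978 when protein-coding genes were ranked alone. The reverse class (116) moved to 29 at the top 2%, 398 at the top 10%, 22 in the lowest 25% by small RNA, 190 per kilobase (80 shared) and 59 among protein-coding genes, and genes rich in both (27) to 12, 124 and, among protein-coding genes, 145. The correlation of 0.126 became 0.018 per kilobase, 0.4121 among protein-coding genes, 0.3229 over genes detected in both assays and 0.1025 to 0.1315 with one library left out. In an alternative chosen after seeing the data, RNA taken from the table counted with flanking windows gave 1666 and 123 genes in the 2 opposite classes.

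For small RNA in xrn3-8, calls over all genes (545 higher, 92 lower) became 1020 and 378 with no filter, and 293 to 510 higher and 37 to 133 lower with one library left out (293, 352 and 302 higher and 37, 42 and 37 lower without Col-0 replicate 1, 2 and 3, and 45 lower without xrn3-8 replicate 2). Calls among genes rich in small RNA with little RNA (15 and 30) became 7 higher under total counts, 112 lower with no filter, and 9 to 14 higher and 12 to 42 lower with one library left out. In the reverse class 6 genes were higher with no filter and 0 to 2 with one library left out, 0 without Col-0 replicate 2 or 3 and 2 without xrn3-8 replicate 1. Little Col-0 small RNA chose that class, so no count of its small RNA calls is a result. For RNA, calls over all genes (3452 higher, 3499 lower) turned to more higher than lower under total counts (5785, 2298) and with no filter (3739, 3630). With no filter 41 genes rich in small RNA with little RNA were higher and 1 lower, a count that is no result since little Col-0 RNA chose them, and 0 to 1 lower with one library left out, 1 without Col-0 replicate 1 or xrn3-8 replicate 3. In the reverse class 3 were higher under total counts, 2 with no filter and 1 to 2 with one library left out; its 80 lower genes stayed within 68 to 83. DESeq2 kept every count within 1.5 times. The cause of these shifts was not tested.

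Replicate numbers are shared by the genotypes, with correlations of same-numbered deviations of −0.43, 0.03 and −0.14 for small RNA and 0.05, 0.19 and 0.15 for RNA. Each RNA library correlated best with its own number, a hint from the data and not the design, but not every pair was over 0.1 in either assay, so the numbers were not taken to pair. With the replicate block, small RNA calls over all genes were 172 higher and 24 lower, those of genes rich in small RNA 8 and 10, and 0 in the reverse class; for RNA, 2 genes of the reverse class were higher. No called value of a named gene changed sign. Of the settings tried on single named genes, 2694 left the call as it was, 79 added one and 177 removed one.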

Other observations

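Some genes rich in small RNA had RNA too high for the class with little RNA. AT2G47020, which overlaps MIR408, had 20338, 17703 and 17910 CPM of small RNA and 7.72, 7.57 and 9.35 CPM of RNA. AT3G06435 had 9917, 9405 and 6541 CPM of small RNA and 15.7, 17.8 and 18.2 CPM of RNA. The ribosomal RNA gene AT3G41768 had 87014, 106555 and 106232 CPM of small RNA, and its RNA of 77.7, 8.31 and 121 CPM varied more between libraries than its small RNA. These 3 genes were chosen after their values were seen.

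Long non-coding RNA genes took 14.4 ± 0.125% of Col-0 small RNA counts (SD, n = 3), and AT5G26146 and AT3G01835 account for most of it; AT3G01835 had 16206, 16862 and 12071 CPM of small RNA and no RNA count. Their typical gene was empty, with 2444 of 3480 having no small RNA count and 2455 no RNA count. Over all labels, 4185 genes had no count in either assay.

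Depth limits the class with little small RNA. Its limit is 5 counts over 3 libraries, or 0.258 CPM, while a count of 0 in a single library allows up to 0.451 to 0.511 CPM. For a gene with no count in all 3 libraries the bound is lower and was not computed.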
